A study of Mus musculus with 45 samples.

Results

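The libraries described here came from mouse hippocampal primary neurons in which an excitotoxic NMDA challenge followed only 0.5 h of synaptic activity, together with their untreated controls. They were the 10 of 45 libraries in the series that carried these treatments, 5 per group. The SP TTX/NMDA group (SP, short protocol) received bicuculline (Bic, 50 µM) for 1 h in all, with tetrodotoxin (TTX, 1 µM) and NMDA (30 µM) present during the last 0.5 h. The control group received no treatment. Each group held 1 library from each of 5 culture preparations, numbered 1, 3, 6, 7 and 8, and values below are given in that order. All cultures were made from newborn C57BL/6N mice, were grown with B27 and 1% rat serum, had AraC added on day in vitro 3 and, by the labels, were treated on day 10 or 11, the methods of the study giving day 11 for the sequenced cells. The labels do not give the number of animals behind a preparation. The question was which part of the activity-induced program was present after an early NMDA challenge, and the induction was read against 3 further conditions with 5 libraries each from the same preparations. These were Bic for 0.5 h (the state when TTX and NMDA were added), Bic for 1 h (the same total time without interruption) and SP TTX (the same schedule without NMDA).

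Bic blocks GABA type A receptors and releases recurrent excitatory synaptic activity with action potential (AP) firing. Calcium entry through synaptic NMDA receptors and voltage-gated calcium channels then activates CREB and the ERK/MAPK pathway, which switch on immediate early genes such as Fos, Arc and Npas4 without new protein synthesis. TTX blocks voltage-gated sodium channels and so ends AP firing, whereas bath-applied NMDA also opens receptors outside synapses, a stimulus known for dephosphorylation of CREB and for neuronal death. A transcript seen after the challenge can have been made before it or during it, and RNA abundance does not tell these apart.

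Library depth, as the sum of gene counts, lay between 11316580 and 50527649 in the control and between 24411692 and 37251209 in SP TTX/NMDA. Neuronal transcripts were abundant in every library, with Snap25, a presynaptic SNARE protein, between 24321 and 29689.7 normalized counts in the control and between 25793 and 30589 in SP TTX/NMDA (a normalized count is a read count scaled to a common library size). Markers of other cells were detected as well. The summed level of 8 astrocyte markers ranged from 12079 to 22233 in the control and from 13969 to 28554 in SP TTX/NMDA. The ranges were 3120.0 to 5129 and 3099 to 6010.1 for 9 markers of the oligodendrocyte lineage, 512 to 703 and 573 to 938 for 8 endothelial and mural markers, and 169.8 to 236 and 186 to 284 for 8 microglial markers. Every one of these markers had reads in at least 1 library of each group.

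One library stood apart from its group. At the 1617 genes that were lower in SP TTX/NMDA than in SP TTX, a comparison without control libraries, the control library of preparation 3 was the lowest of the 5 controls for 1180 genes (73.0%), against 29.6% of all 15705 genes tested. Its median difference from the median of the other 4 controls at these genes was −0.31 on the log2 scale, and it was 0.14 at the 931 genes that were higher than in SP TTX. The other 4 control libraries had medians between −0.023 and 0.096 at the lower genes. The same library had the lowest Fosb count of the 5 controls, and the lowest Fos count. Values without preparation 3 are given beside some of the genes below.

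Compared with the control, 849 of 15373 genes were higher and 854 were lower in SP TTX/NMDA (5.52% and 5.56%, adjusted p < 0.05, edgeR's quasi-likelihood test with the preparation as a block and Benjamini-Hochberg adjustment). Increases reached further than decreases. Among the called genes, 53 were more than 1 log2 unit higher and 6 were more than 1 log2 unit lower, and the median change was 0.41 for the higher and −0.28 for the lower genes. All 5 preparations moved in the same direction for 759 of the higher and 722 of the lower genes. The counts depended on single preparations. Without preparation 3, 1799 genes were higher and 2353 lower, and without preparation 7 only 142 and 68 were called. Without preparation 1, 368 and 240 genes were called, without preparation 6, 372 and 240, and without preparation 8, 628 and 521. The fit without the preparation block called 126 higher and 131 lower genes.

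The 20 genes with the largest increases, among those with the same direction in all 5 preparations and at least 50 normalized counts in the higher group, were, in descending order, Fosb, Ccn1, Arc, Fos, Npas4, Kcne4, Klf4, 1700016P03Rik, Junb, Gadd45g, Btg2, Nr4a1, Egr4, Dusp1, Ier2, Egr2, Arl4d, Gadd45b, Egr1 and Thbd. All but Kcne4, 1700016P03Rik and Thbd belonged to the gene lists used below. Those lists were chosen with earlier results of these data known, so membership and counts of list members are not independent evidence. Their log2 fold changes ranged from 4.06 to 1.64, and the control and SP TTX/NMDA libraries did not overlap for 19 of them, all but Thbd. Of all 15373 genes, 1.95% had SP TTX/NMDA libraries all above and 2.03% all below the controls, and the naming rule itself favours genes without overlap. All 20 stayed called when any single preparation was left out, and 19 stayed called without the preparation block, in which Thbd missed the threshold. Against the state when TTX and NMDA were added, Bic 0.5 h, the level of these genes had mostly gone down. Of the 20, 13 were lower than after 0.5 h Bic, 2 were higher and 5 did not pass the test (in that comparison 17.3% of 15321 genes were lower and 15.1% higher). Against uninterrupted 1 h Bic, 18 were lower, 1 was higher and 1 did not pass (15.6% lower and 11.7% higher of 15435 genes). Against SP TTX, 15 were lower, 3 were higher and 2 did not pass (10.3% lower and 5.93% higher of 15705 genes). The comparisons share the SP TTX/NMDA libraries.

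**Figure D1:**
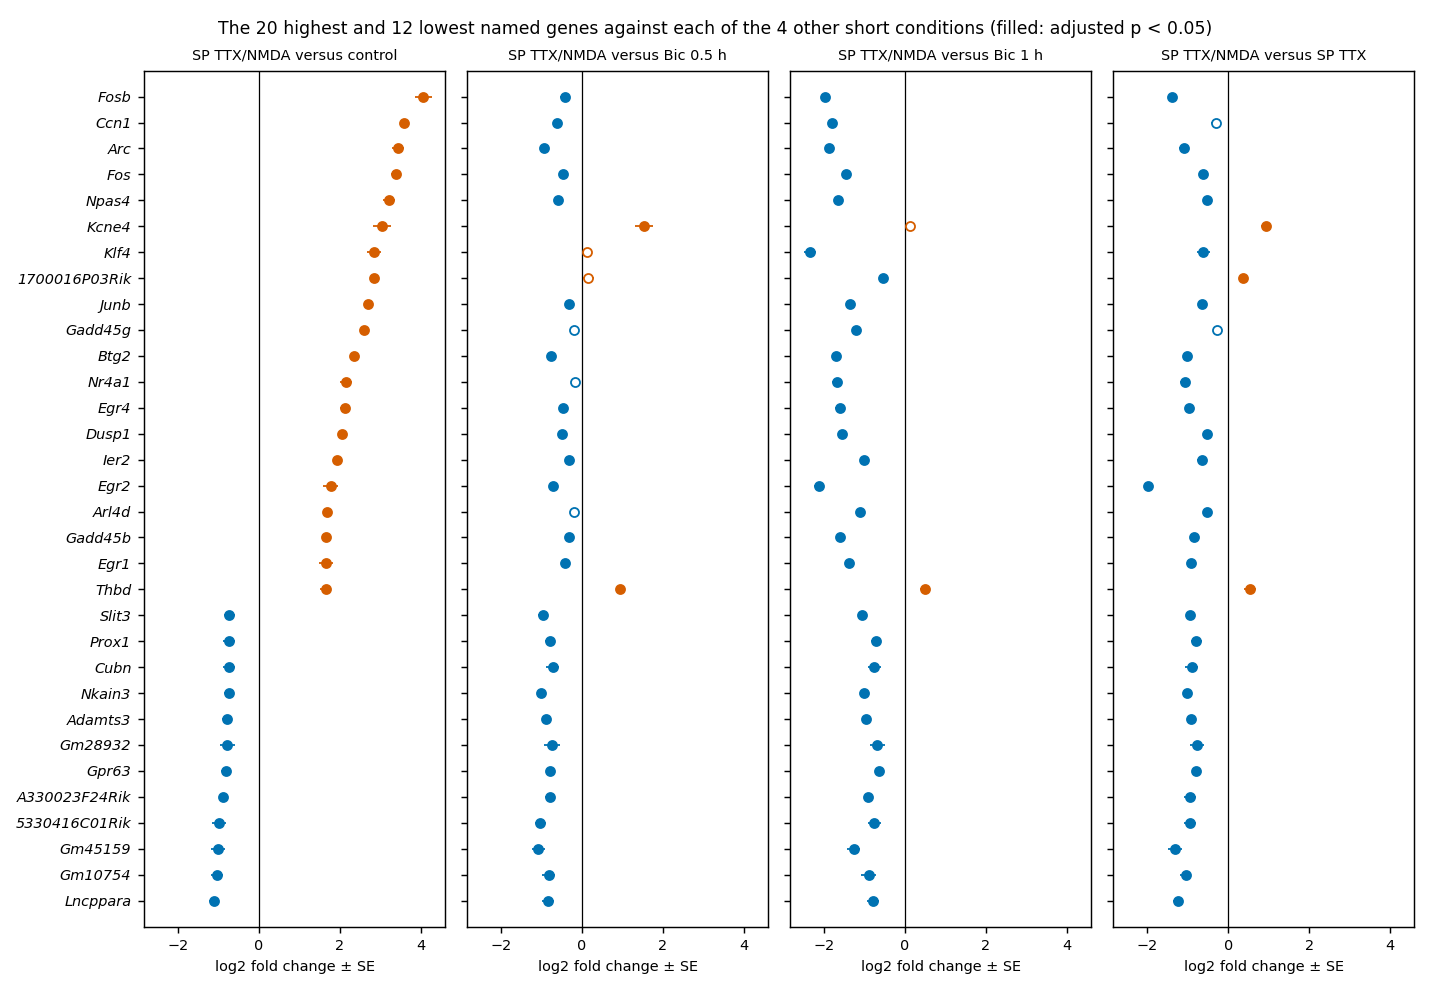
Log2 fold changes (x axis, ± SE) of the 20 highest and 12 lowest named genes (y axis) in SP TTX/NMDA against the control, Bic 0.5 h, Bic 1 h and SP TTX, with filled points where the adjusted p-value was under 0.05. The 20 genes above the control lie mostly below 0 in the other 3 panels, Kcne4 and Thbd lie above 0 in all 3 and 1700016P03Rik in those against Bic 0.5 h and SP TTX, and the 12 lowest lie below 0 in all 4.

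AP-1 factors, the Fos, Jun and related basic leucine zipper proteins that bind DNA as dimers, included Fosb, the first of the 20 genes above. Of 10 tested members, 7 were higher than in the control (5.52% over all genes) and 3 did not pass, with a median log2 fold change of 0.82 beside 0.0081 over all genes tested. Fosb had normalized counts of 319, 131, 256, 273 and 357 in the control and 3715, 5425, 3807, 4632 and 4196 in SP TTX/NMDA. Every challenged library lay far above the highest control value, and the fitted increase was 16.7-fold (log2 4.06 ± 0.202 SE, adjusted p = 5.81e-07, log2 3.82 without preparation 3). Fos, whose mRNA is a standard marker of recent neuronal activity, had 1093, 762, 862, 1201 and 880.2 in the control and 8754, 12140.4, 8305, 11879.9 and 8545 in SP TTX/NMDA, again with no overlap. It was 10.3-fold higher (log2 3.37 ± 0.116, adjusted p = 2.56e-08). After 0.5 h Bic, Fos counts were 11097, 14671, 14614, 14620.2 and 14119.9, so that in each preparation the level after the challenge was below the level at its start (log2 −0.48 ± 0.0723, adjusted p = 0.000342). Junb rose by 2.69, Maff by 1.26, Atf3 by 0.89, Jun by 0.76 and Jund by 0.31 on the log2 scale. Fosl1 (0.30), Fosl2 (0.031) and Mafk (0.041) did not pass the test. Of 10 members tested against 1 h Bic, all 10 were lower, from −0.41 for Mafk to −2.62 for Fosl1 (15.6% of 15435 genes were lower). Without the block, 5 AP-1 factors were higher than in the control, and the calls of Atf3 and Jund were lost.

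Promoters are shown because a short element was frequent in those of the 20 highest genes. Within the 250 bases before the RefSeq gene start, TGACG or its reverse complement CGTCA, the half-site of the cAMP response element that CREB binds, was present in 13 of the 15 of the 20 highest genes with a promoter in the table used (86.7%), in 2 of 9 of the 12 lowest (22.2%) and in 30% of the 11384 tested genes with a promoter there. The full palindrome TGACGTCA, which contains both half-sites, was found in Btg2, Dusp1 and Arl4d, 3 of these 15 genes (20%), against 3.06% of all genes tested. The AP-1 element TGAGTCA or TGACTCA was in 3.88% and CCATATTAG or CTAATATGG, 1 spelling of the element bound by SRF, in 0.0791% of all genes tested, and neither was in the windows of the 15 or of the 9 genes. Both strands were searched. Outside these 2 groups of genes the element did not go with direction alone. TGACG or CGTCA was also in windows of Nr4a3, Homer1 and Bdnf, all lower than in the control, and of Atf3, which was higher. It was absent from the windows of Jun and Ptgs2, both higher than in the control. These matches describe letters in the windows and not binding. The windows of Fos, Btg2, Nr4a1 and Arl4d are written 5′ to 3′ on the gene's strand (RefSeq, GRCm38.p6), with the element matches in capitals.
Fos, chr12:85473640-85473889, plus strand: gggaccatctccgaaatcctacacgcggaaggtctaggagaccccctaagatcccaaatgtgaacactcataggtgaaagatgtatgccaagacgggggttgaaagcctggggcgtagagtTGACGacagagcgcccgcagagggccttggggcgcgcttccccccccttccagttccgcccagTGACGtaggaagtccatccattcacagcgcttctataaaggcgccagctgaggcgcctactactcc
Btg2, chr1:134079156-134079405, minus strand: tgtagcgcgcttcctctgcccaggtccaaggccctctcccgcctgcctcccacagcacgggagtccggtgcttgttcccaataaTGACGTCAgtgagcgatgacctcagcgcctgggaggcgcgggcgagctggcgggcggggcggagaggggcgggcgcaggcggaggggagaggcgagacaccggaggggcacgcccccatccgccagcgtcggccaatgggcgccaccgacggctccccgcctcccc
Nr4a1, chr15:101266596-101266845, plus strand: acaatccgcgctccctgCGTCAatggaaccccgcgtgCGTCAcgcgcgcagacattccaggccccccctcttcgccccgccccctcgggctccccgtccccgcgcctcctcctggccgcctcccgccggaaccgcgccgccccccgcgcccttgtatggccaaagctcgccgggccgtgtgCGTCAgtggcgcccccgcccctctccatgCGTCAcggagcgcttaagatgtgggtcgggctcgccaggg
Arl4d, chr11:101665291-101665540, plus strand: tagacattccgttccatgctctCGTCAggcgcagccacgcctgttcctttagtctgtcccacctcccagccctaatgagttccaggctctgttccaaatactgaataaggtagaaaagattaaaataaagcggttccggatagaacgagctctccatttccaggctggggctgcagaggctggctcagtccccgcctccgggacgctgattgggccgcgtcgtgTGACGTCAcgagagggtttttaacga

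The Egr factors, zinc finger proteins of the immediate early class, and the Nr4a orphan nuclear receptors with Npas4, a neuron-specific basic helix-loop-helix factor, were mostly higher as well. All 4 Egr genes were higher than in the control (5.52% over all genes), and their Nab corepressors Nab1 (−0.028) and Nab2 (0.076) did not pass the test. Egr2, a factor also known from myelinating glia, had 249, 124, 129.6, 122 and 169 in the control and 399, 646, 389.6, 552 and 583 in SP TTX/NMDA. The groups were apart, at 3.42-fold (log2 1.77 ± 0.18, adjusted p = 0.000338), but SP TTX kept far more Egr2, with 1874, 2285, 2032, 1806 and 2040.5. Its difference from SP TTX was −1.97 ± 0.0952 (adjusted p = 1.23e-06), the lowest value among the 20 highest genes in that comparison. Egr4 rose by 2.12, Egr1 by 1.66 and Egr3 by 0.35 on the log2 scale, and the call of Egr3 was lost without the block and without preparation 7 or 8.

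Npas4 normalized counts were 1477, 786, 1058, 1805 and 1088 in the control and 10482, 13035, 9604, 12393 and 10299.7 in SP TTX/NMDA. The groups did not overlap and differed 9.23-fold (log2 3.21 ± 0.153, adjusted p = 4.05e-07). Nr4a1 had 1405, 871, 1375, 1492 and 1077 in the control and 4184, 6664, 5082, 6902 and 4560.2 in SP TTX/NMDA, a 4.41-fold increase (log2 2.14 ± 0.147, adjusted p = 1.19e-05). It is 1 of the 5 genes among the 20 whose level did not pass the test against Bic 0.5 h (log2 −0.17 ± 0.0862, adjusted p = 0.15). Nr4a2 rose by 0.58. The third member, Nr4a3, went the other way, with 8019, 6914, 9732, 9671 and 7149 in the control and 4660.1, 6149, 6428, 6625 and 6044 in SP TTX/NMDA. All 5 challenged libraries lay below the lowest control, at 0.724 of the control level (log2 −0.47 ± 0.0812, adjusted p = 0.00703). Its counts after 0.5 h Bic were 7376, 8926, 9375, 10629.9 and 7705, close to the control values, and they reached 17695, 12745, 18380.2, 18979 and 17172 after 1 h. The log2 fold change of Nr4a3 was −0.54 without preparation 3, and its call was lost without preparation 7 or without the block.

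Among the other immediate early genes, 19 of 29 tested members were higher than in the control (5.52% over all genes) and 10 did not pass, with a median log2 fold change of 0.36. Without the block 8 were called, and without preparation 7, 11. Ccn1, a secreted matricellular protein, had 254, 236, 166, 243 and 156 in the control and 2512, 2926, 1653, 3232 and 2143 in SP TTX/NMDA. It was 11.9-fold above the control (log2 3.57 ± 0.0812, adjusted p = 1.32e-09) and its difference from SP TTX did not pass the test (−0.29 ± 0.123, adjusted p = 0.128). Gadd45g, a stress sensor of the growth arrest and DNA damage family, was 2.58 above the control on the log2 scale and −0.28 ± 0.0895 from SP TTX (adjusted p = 0.0541). Btg2, an antiproliferative factor, had 649, 519, 462, 538 and 638 in the control and 2786, 3577, 2135, 3084 and 2770.2 in SP TTX/NMDA and was 5.12-fold higher. Ier2 rose by 1.92, Arl4d, a small GTPase, by 1.68 and Gadd45b by 1.66 on the log2 scale. Trib1, a pseudokinase, was only 0.31 ± 0.0895 above the control (adjusted p = 0.0481), and this call was lost without the block and without preparation 6, 7 or 8. Csrnp1 (0.077), Arl5b (−0.088), Sgk1 (0.13) and Srf (−0.13) did not pass.

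**Figure D2:**
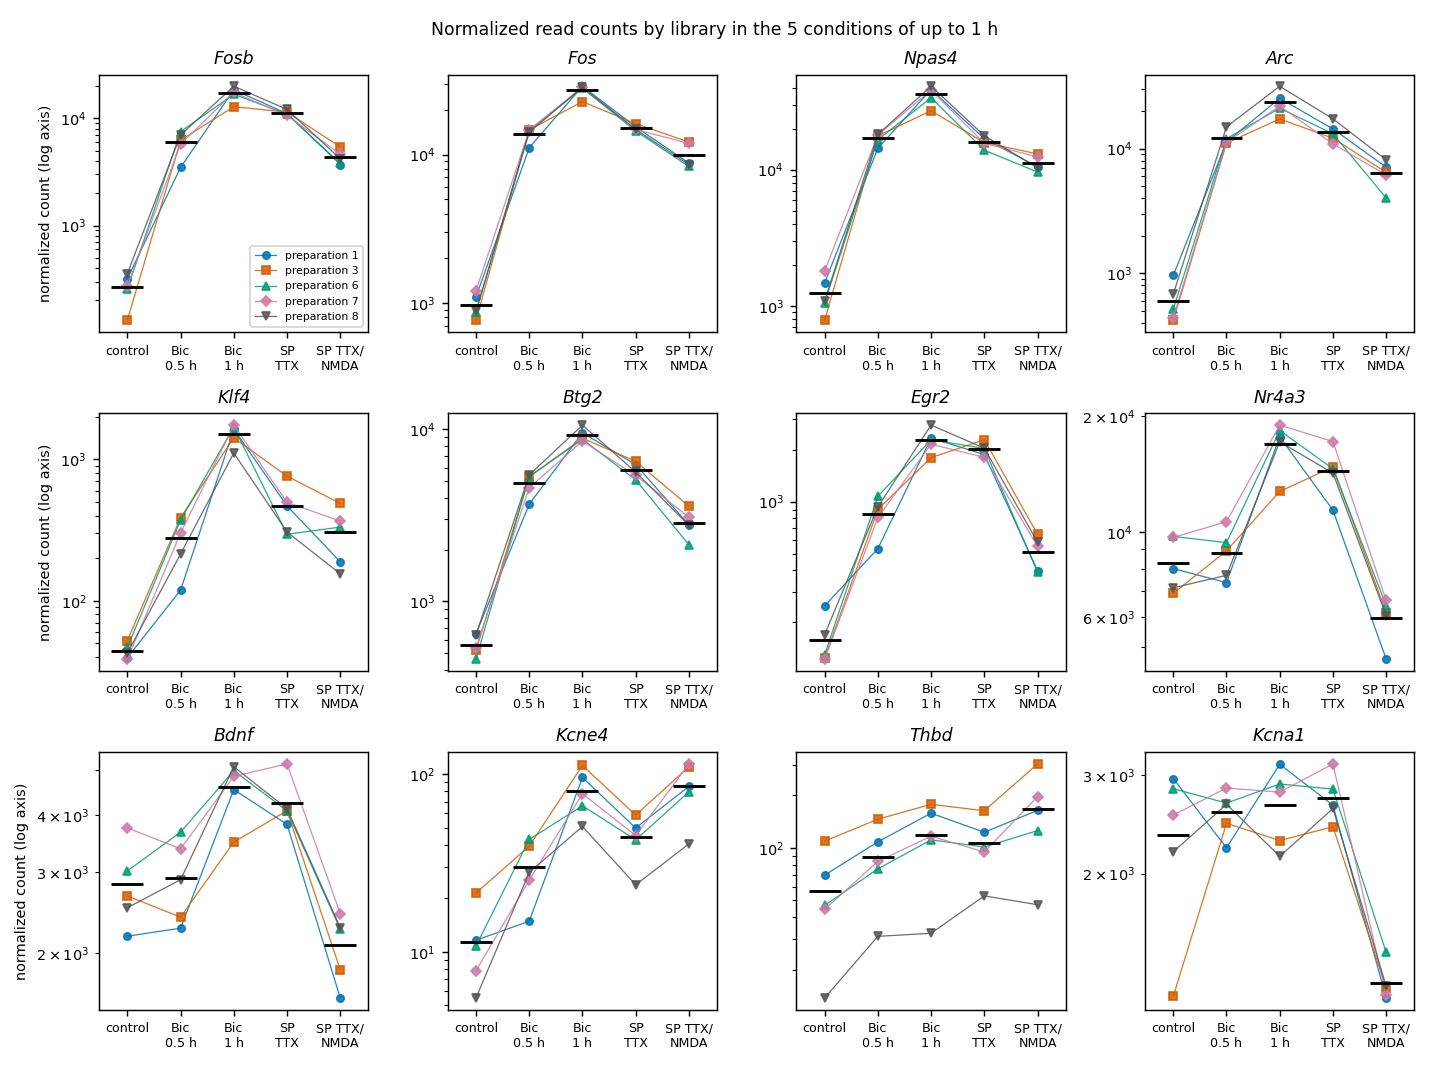
Normalized counts (log y axis) of 12 genes in the 25 libraries of the 5 conditions (x axis), with 1 line per culture preparation and a black bar at each group mean. The immediate early genes sit above the control in SP TTX/NMDA but below their 1 h Bic level, Nr4a3, Bdnf and Kcna1 sit at or below the control, Kcne4 and Thbd are at or above their 1 h Bic mean, and preparation 3 has the lowest control value of Kcna1.

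Synaptic plasticity effectors divided. Of 26 tested members, 7 were higher, 6 were lower and 13 did not pass, with a median of −0.033 (5.52% higher and 5.56% lower over all genes). Arc, a scaffold that promotes the removal of AMPA receptors from synapses, had 961, 419.9, 515, 441 and 679 in the control and 7088, 6441, 4014, 6147 and 8121 in SP TTX/NMDA. It was 10.8-fold above the control (log2 3.44 ± 0.146, adjusted p = 1.62e-07) and lower than at the start of the challenge (log2 −0.94 ± 0.0944, adjusted p = 2.32e-05). Ptgs2, the inducible cyclooxygenase, rose by 1.21, Rgs2, a regulator of G protein signaling, by 0.68, Plk2, a kinase in synaptic scaling, by 0.41 and Fbxo33 by 0.29. Lower than in the control were Kcna1 (−0.83), Ankrd33b (−0.65), Nptx1 (−0.52), Bdnf (−0.43), Ptchd1 (−0.43) and Homer1 (−0.20). Of this list 1 gene was called lower without the block and 2 without preparation 7, and the call of Ptchd1 was lost under 7 of 11 alternatives. Against 1 h Bic all 26 were lower (15.6% of 15435 genes were lower). Against Bic 0.5 h, 21 of the 26 were lower and 5 did not pass (17.3% of 15321 genes were lower). Members such as Inhba, Ptchd1, Ankrd33b and Kcna1 are among those the study ranks as most affected by shut-off in this series. These counts are therefore not independent evidence of a direction.

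Bdnf, the neurotrophin BDNF, had 2177, 2664, 3020.3, 3749 and 2511 in the control and 1597, 1839.7, 2253, 2437 and 2272 in SP TTX/NMDA. Each challenged library was below the control of its own preparation, although the groups overlapped, and the fitted level was 0.74 of the control (log2 −0.43 ± 0.0652, adjusted p = 0.00361). The call of Bdnf held when any single preparation was left out but not without the block. Its counts after 0.5 h Bic, 2267, 2395, 3669, 3374 and 2890.2, overlapped the control values. Homer1, a postsynaptic scaffold, had 2608, 2775, 3089, 2894 and 3013 in the control and 2331, 2208, 2741, 2317 and 2998 in SP TTX/NMDA, lower within every preparation by a small amount (log2 −0.20 ± 0.0565, adjusted p = 0.0462), and 6 of 11 alternative fits did not call it. Inhba, the activin A subunit, did not pass, with 219, 189, 193, 202 and 216 in the control and 173, 128, 210.3, 137 and 191 in SP TTX/NMDA (log2 −0.30 ± 0.107, adjusted p = 0.0985). These 3 genes, which the study names, were all below SP TTX, with log2 fold changes of −1.03, −0.65 and −0.75 (adjusted p = 7.77e-06, 0.000289 and 0.0033).

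Mir132 and Mir212, microRNA genes of the synaptic plasticity list, lie in an intron of 1700016P03Rik on chromosome 11. The mature microRNAs that their 3′ arms give are shown because they have the same seed, bases 2 to 8, in capitals (RefSeq, GRCm38.p6).
mmu-miR-132-3p, chr11:75173723-75173744, plus strand: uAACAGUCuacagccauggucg
mmu-miR-212-3p, chr11:75173443-75173464, plus strand: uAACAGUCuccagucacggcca
Reads of a poly-A library at these genes come from the long transcript and not from the mature microRNAs. Mir132 had 6.98, 7.14, 9.0, 18.3 and 4.13 in the control and 43.6, 33.9, 23.7, 29.3 and 33.1 in SP TTX/NMDA, and Mir212 had 11.6, 5.95, 9.0, 17.8 and 2.75 in the control and 36.5, 34.9, 26.8, 42.6 and 39.8 in SP TTX/NMDA. Both groups were apart, at log2 1.57 ± 0.295 (adjusted p = 0.00947) and 1.82 ± 0.271 (adjusted p = 0.00353). The host transcript 1700016P03Rik rose from 100.03, 85.6, 91.8, 107 and 84 to 585, 725, 540.1, 796 and 705 (log2 2.84 ± 0.0922, adjusted p = 1.62e-08). Against Bic 0.5 h, Mir132 (−0.99) and Mir212 (−1.15) were lower, whereas the host did not pass the test (0.15 ± 0.136). Against SP TTX the host was higher (0.37 ± 0.101, adjusted p = 0.0323) and the intronic genes were lower (−0.98 and −0.91). The difference between host and intron was not tested.

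Of the 9 tested members of a list of neuroprotective activity-induced genes, 6 were higher than in the control, 1 was lower and 2 did not pass. Their median was 1.66, and over all genes 5.52% were higher and 5.56% lower. Members of this list overlap 13 genes selected from those that the study names. The 13 are Bdnf, Inhba, Homer1, Npas4, Nr4a1, Trib1, Arc, Fos, Egr1, Atf3, Btg2, Mir132 and Mir212. The study reports responses of these genes from the same samples, so the count is not independent evidence of a direction. Of those 13 genes, 10 were higher than in the control, 2 were lower and 1 did not pass. All 13 were lower than after 1 h Bic and than in SP TTX (15.6% and 10.3% lower over all genes). Npas4, Gadd45g, Btg2, Nr4a1, Gadd45b and Atf3 made up the higher members. Atf3, a stress-responsive bZIP factor, had 147, 152, 193, 110.3 and 758 in the control and 244, 456, 365, 302 and 772 in SP TTX/NMDA. Preparation 8 had the highest Atf3 level in both groups, the groups overlapped, and the call (log2 0.89 ± 0.193, adjusted p = 0.0163, log2 0.69 without preparation 3) was lost without the block and without preparation 6 or 7. Bdnf was the lower member, and Inhba and Bcl6 (0.032) did not pass.

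Some genes stood higher after the challenge than at its start. Kcne4, an accessory subunit of voltage-gated potassium channels, had 11.6, 21.4, 10.8, 7.84 and 5.51 in the control and 85.2, 109.7, 79.4, 114 and 40.5 in SP TTX/NMDA, with 14.9, 39.3, 42.9, 25.3 and 28 after 0.5 h Bic. It was higher than in the control (log2 3.04 ± 0.214, adjusted p = 1.50e-05), than after Bic 0.5 h (1.53 ± 0.214, adjusted p = 0.000207) and than in SP TTX (0.94 ± 0.123, adjusted p = 0.000786). Its difference from 1 h Bic did not pass (0.11 ± 0.127, adjusted p = 0.534). Thbd, the thrombin receptor thrombomodulin, had 69.8, 109, 46.8, 44.4 and 13.8 in the control and 164, 303, 126, 197 and 47.2 in SP TTX/NMDA, with overlap between groups but an increase in each preparation. It was the only 1 of the 20 genes that was higher than all 4 other conditions, by 1.64, 0.95, 0.49 and 0.54 against the control, Bic 0.5 h, Bic 1 h and SP TTX, and each of these calls was lost without the block. Zfp36l1 and Zfp36l2, RNA-binding proteins that destabilize AU-rich mRNAs, rose by 0.75 and 0.80 against the control and by 0.56 and 0.39 against Bic 0.5 h, and Ier3 by 1.24 and 0.57. The calls of Zfp36l1 and Zfp36l2 against the control were lost without the block.

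Notch receptors, their ligands, targets and the Id inhibitors of helix-loop-helix factors formed a further such group. Of 14 tested members, 7 were higher than in the control, 1 was lower and 6 did not pass (median 0.37, beside 5.52% higher and 5.56% lower over all genes). Against Bic 0.5 h, 11 of the 14 were higher (15.1% over all genes). Notch1 had 233, 249.8, 226, 320.4 and 252 in the control and 553, 452, 343, 574 and 284 in SP TTX/NMDA, higher in each preparation (log2 0.74 ± 0.118, adjusted p = 0.00465). Jag1, a Notch ligand, rose by 0.64, Id1 by 0.63, Id3 by 0.56, Notch2 by 0.51 and Notch3 by 0.47, whereas Hes5, a Notch target, was lower (−0.50). All 8 calls of edgeR were lost without the block, and all were lost without preparation 7, while DESeq2 with the block called 7 higher. These genes are also expressed by glial and vascular cells, and some markers of those cells were higher than in the control too. Of the tested markers, 3 of 8 astrocyte, 4 of 7 oligodendrocyte lineage and 3 of 7 endothelial and mural genes were higher than in the control (5.52% over all genes). Their medians were 0.33, 0.42 and 0.44, and 4 microglial genes did not pass. The counts of higher genes were 1, 0 and 0 without the block, 1, 1 and 0 without preparation 7, and 6, 3 and 1 by DESeq2 with the block. The highest of those called were Sox9 (0.92), Flt1 (0.88), Pdgfra (0.63), Cspg4 (0.50) and Pdgfrb (0.48). Sox9 was itself raised by Bic, with mean counts of 405 in the control, 1608 after 1 h Bic and 763 in SP TTX/NMDA. It was called lower than after 1 h Bic. Against SP TTX, 3 of 14 Notch and Id genes and 1 of 8 astrocyte markers were higher (5.93% over all genes). Of the oligodendrocyte lineage markers and of the endothelial and mural markers, 0 of 7 each were higher. The median summed astrocyte level was 14640 in the control, 21523 in SP TTX and 22589 in SP TTX/NMDA. In bulk RNA more cells of a type and more RNA per cell cannot be told apart, and the part of these cells in the result was not tested.

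The 12 genes with the largest decreases, by the same rule, were Lncppara, Gm10754, Gm45159, 5330416C01Rik, A330023F24Rik, Gpr63, Gm28932, Adamts3, Nkain3, Cubn, Prox1 and Slit3, from −1.11 to −0.73 on the log2 scale. The 5 with the largest decreases and Gm28932 are annotated as noncoding. All 12 were also lower than after Bic 0.5 h, after Bic 1 h and in SP TTX, with medians of −0.83, −0.84 and −0.94 beside −0.81 against the control, and the groups did not overlap for 8 of them (2.03% over all genes, without the choice by size). Slit3 (chr11:35121224-35708507, plus strand), an axon guidance ligand, had 3692, 1538, 3333, 3229 and 2657 in the control and 2015, 1506, 1581, 1391 and 1991 in SP TTX/NMDA. The challenged libraries lay below 4 of the 5 controls, the exception being preparation 3, and the log2 fold change was −0.73 ± 0.139 (adjusted p = 0.00995) with preparation 3 and −0.90 without it. Prox1, a homeobox factor of dentate granule cells, had 1314, 1156, 1775, 1142 and 1238 in the control and 650.4, 1035, 1156, 829 and 437 in SP TTX/NMDA, lower in each preparation (log2 −0.73 ± 0.148, adjusted p = 0.0127, −0.86 without preparation 3). Without preparation 7, 6 of the 12 calls were lost, those of Slit3, Prox1, Cubn, Gm28932, 5330416C01Rik and Gm45159. The calls of Slit3, Prox1 and Gm28932 were lost without the block. Those of Prox1 and Gm28932 were lost without preparation 1, and that of Gm28932 without preparation 6. Dcc, the netrin receptor of growing axons, was outside this rule because preparation 3 did not share its direction, with 1300.4, 478, 1214, 1047 and 891 in the control and 436, 492, 429.8, 344 and 464 in SP TTX/NMDA. It fell by 1.14 ± 0.192 (adjusted p = 0.00598) on the log2 scale, and its value was −1.40 without preparation 3, but the call was lost without preparation 7.

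Of 24 voltage-gated potassium channel subunits tested, 9 were lower, 1 was higher and 14 did not pass (median −0.16), beside 5.56% lower and 5.52% higher over all genes, and 4 were lower without the block. Leaving out single preparations gave between 2 and 17 lower genes, with 2 without preparation 7. Kcna1, the Kv1.1 subunit that limits axonal excitability, had 2957, 1207, 2837, 2546 and 2187 in the control and 1199, 1249, 1446, 1216 and 1258 in SP TTX/NMDA. Apart from the control of preparation 3, all controls were well above all challenged libraries. Its change was −0.83 ± 0.145 (adjusted p = 0.00721) and −1.03 without preparation 3, and the call was lost without preparation 7. Kcna4, an A-type channel subunit, had 1219, 1097, 1395, 1495 and 1204 in the control and 703, 812, 948, 863 and 957 in SP TTX/NMDA, with no overlap (log2 −0.58 ± 0.0723, adjusted p = 0.00124). Kcnq5 (−0.47), Kcnv1 (−0.46), Kcnh1 (−0.43) and Kcnd2 (−0.39) were lower too, and Kcnc2, of fast-spiking cells, was higher (0.22).

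Glutamate receptor genes changed little and in both directions. Of 22 tested, 6 were lower, 4 were higher and 12 did not pass (median −0.041), beside 5.56% lower and 5.52% higher over all genes. Without the block 1 was lower, and without preparation 7, 0 were lower and 0 higher. The lower genes included Grin2a (−0.34) and Grin2b (−0.33), which encode NMDA receptor subunits, Grm5 (−0.31), Grm7 (−0.29) and Grik2 (−0.20). The higher genes were Grik1 (0.31), Grin2d (0.29), Grm2 (0.28) and Gria4 (0.24). The neuronal markers divided in a like manner. Camk2a, the kinase of excitatory synapses, had 34952, 19491, 31160.2, 26184 and 28795 in the control and 21047, 16598, 17795, 15210.1 and 20813 in SP TTX/NMDA (log2 −0.60 ± 0.0805, adjusted p = 0.00187, log2 −0.70 without preparation 3), and Slc17a7 (−0.32), Map2 (−0.25) and Prox1 were also lower. The genes of inhibitory neurons Gad1 (0.26), Gad2 (0.30) and Slc32a1 (0.29) were higher. Rbfox3 (0.021), Tubb3 (0.022), Snap25 (0.016) and Syt1 (0.024) did not pass. Without the block Camk2a alone of these 11 genes was called, and over all genes with at least 1 read Prox1 stayed called too.

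**Figure D3:**
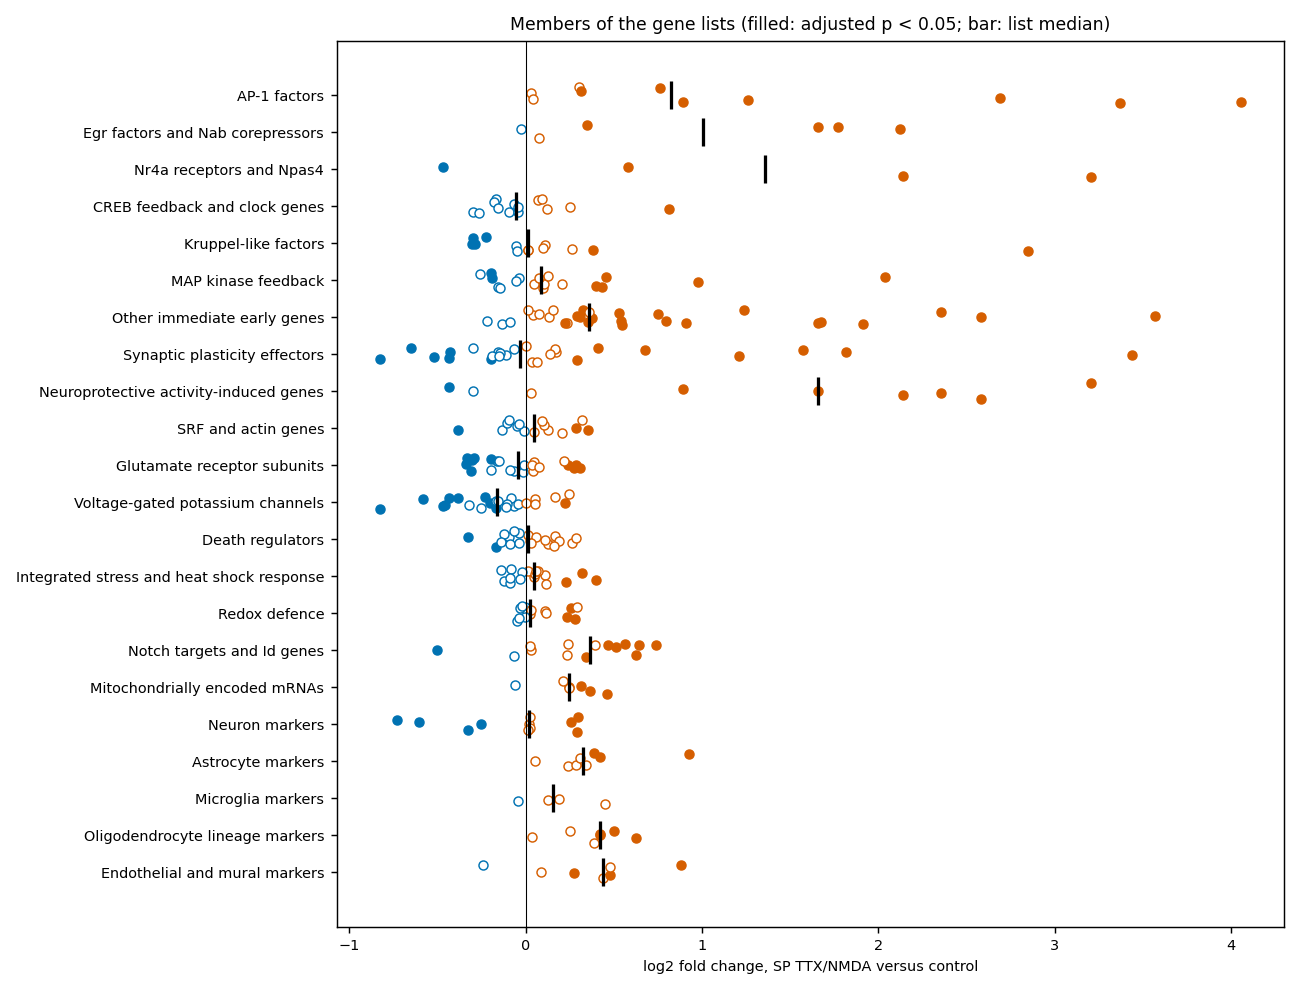
Log2 fold change of SP TTX/NMDA against the control (x axis) for every tested member of 22 gene lists (y axis), filled where the adjusted p-value was under 0.05, with a black bar at the list median. AP-1 factors, Egr factors, Nr4a receptors with Npas4 and the neuroprotective list have the highest medians, from 0.82 to 1.66, and potassium channels the lowest, −0.16.

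In each of the remaining lists at most 5 members were higher and at most 4 lower, beside 5.52% higher and 5.56% lower over all genes. Of 18 tested members of the MAP kinase feedback list, 5 were higher and 2 lower (median 0.089), led by the phosphatases Dusp1 (2.04) and Dusp6 (0.98). Klf4, a zinc finger factor with 39.5, 52.3, 46.8, 38.7 and 42.7 in the control and 189, 488, 332, 366 and 155 in SP TTX/NMDA, was 7.2-fold higher (log2 2.85 ± 0.169, adjusted p = 2.86e-06), and of the 13 Kruppel-like factors tested 2 were higher and 4 lower. Sik1, a kinase that restrains CREB coactivators, rose by 0.82 and was the only 1 of 14 CREB feedback and clock genes past the test. Among SRF and actin genes 2 of 15 were higher and 1 lower, among redox defence genes 3 of 15 were higher, and among integrated stress and heat shock genes 3 of 17 were higher, Ppp1r15a (0.40), Ddit4 (0.32) and Dnajb1 (0.23). Of 21 tested death regulators, Hrk (−0.33) and Bcl2l1 (−0.17) were lower and 19 did not pass, among them Bax (0.16) and Bbc3 (0.11). The mitochondrially encoded mRNAs mt-Nd4 (0.46), mt-Cytb (0.37) and mt-Co1 (0.31) were higher among 7 tested. Without the block Klf4, Sik1 and 3 of the MAP kinase feedback genes were called, and the calls in the SRF and actin, redox, stress, death and mitochondrial lists were lost. Over all genes with at least 1 read and without the block, mt-Nd4 stayed called.

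Levels outside all other short conditions were more often low than high. Against the control, Bic 0.5 h, Bic 1 h and SP TTX alike, 197 genes were higher (1.30% of the 15207 genes in all 4 tests) and 600 were lower (3.95%). The 4 tests share the SP TTX/NMDA libraries, so that 1 deviating library there would move all of them. Without the block the numbers were 13 and 102, without preparation 7 they were 27 and 66, without preparation 1, 65 and 161, without preparation 6, 124 and 197, without preparation 8, 129 and 408, and without preparation 3, 143 and 865. Among those with at least 50 normalized counts in the higher group, the genes with the largest decrease against SP TTX were Dcc, Gm45159, Nr4a3, Lncppara, Kcna1, Gm10754, Bdnf and Nkain3, from −1.35 to −1.01. With the same minimum, those with the largest increase were Gm19938, A230103L15Rik, Gm21781, Tnfrsf25, Gm20045, Gm4673, CT010445.1 and Dnase1l2, from 1.5 to 0.88. Only Tnfrsf25, a death domain receptor of the tumor necrosis factor family, and Dnase1l2, a deoxyribonuclease, are protein-coding among these 8. Gm19938, in an intron of Xkr4 on chromosome 1, had 23.3, 40.4, 10.8, 25.6 and 28.9 in the control and 49.7, 41.9, 61.8, 53.1 and 52.6 in SP TTX/NMDA, with no overlap (log2 1.05 ± 0.257, adjusted p = 0.027), and its call against the control was lost without the block and without preparation 1, 6, 7 or 8.

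The lowered genes were long. The median annotated length of the 854 genes lower than in the control was 72 kb, against 23.1 kb for the 849 higher genes and 23.5 kb for all 15373 genes tested. Lower genes had medians of 64.7, 56.1 and 69.5 kb against Bic 0.5 h, Bic 1 h and SP TTX, and higher genes 12.5, 16 and 13.5 kb. Length was compared as a description and not tested.

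To express how much of the Bic response was present after the challenge, the rise over the control in SP TTX/NMDA was divided by the rise after 1 h Bic of the same preparation, for the 124 genes whose 1 h Bic level was at least 1.5 times the control in each preparation. Both rises share the control library, so the share is a description. The median retained share was 22.6%, with quartiles of 8.6% and 33.9%. Without preparation 3 the median was 19.8%. The share was below 50% for 107 genes, below 0 for 12 and above 100% for 5.

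The immediate early genes kept a part of their rise. The share was 39.6% ± 11.8 (SD, n = 5) for Gadd45g, 36.2% ± 11.6 for Junb, 34.7% ± 10.7 for Fos, 29.9% ± 9.67 for Npas4, 27.3% ± 12 for Nr4a1, 25.7% ± 6.7 for Arc and 25.3% ± 9.42 for Fosb. It was lower for Klf4 (17.6% ± 8.99), Ptgs2 (10.3% ± 3.43), Atf3 (10.2% ± 9.07) and Trib1 (7.11% ± 7.8), and below 0 for Nr4a3 (−26% ± 12.8), Sstr1 (−16.1% ± 17.2) and Arl5b (−3.37% ± 8.08). From Gadd45g to Fosb, neighbours in this order differed by less than their SDs. At the other end were Thbd (181% ± 71.1) and Kcne4 (108% ± 30.2), with Apold1 (141% ± 50.9), an endothelial immediate early gene chosen after its values were seen. The median share over the 124 genes was 16.7%, 36.8%, 17.1%, 23.5% and 19.2% in preparations 1, 3, 6, 7 and 8, so that preparation 3 retained the most.

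**Figure D4:**
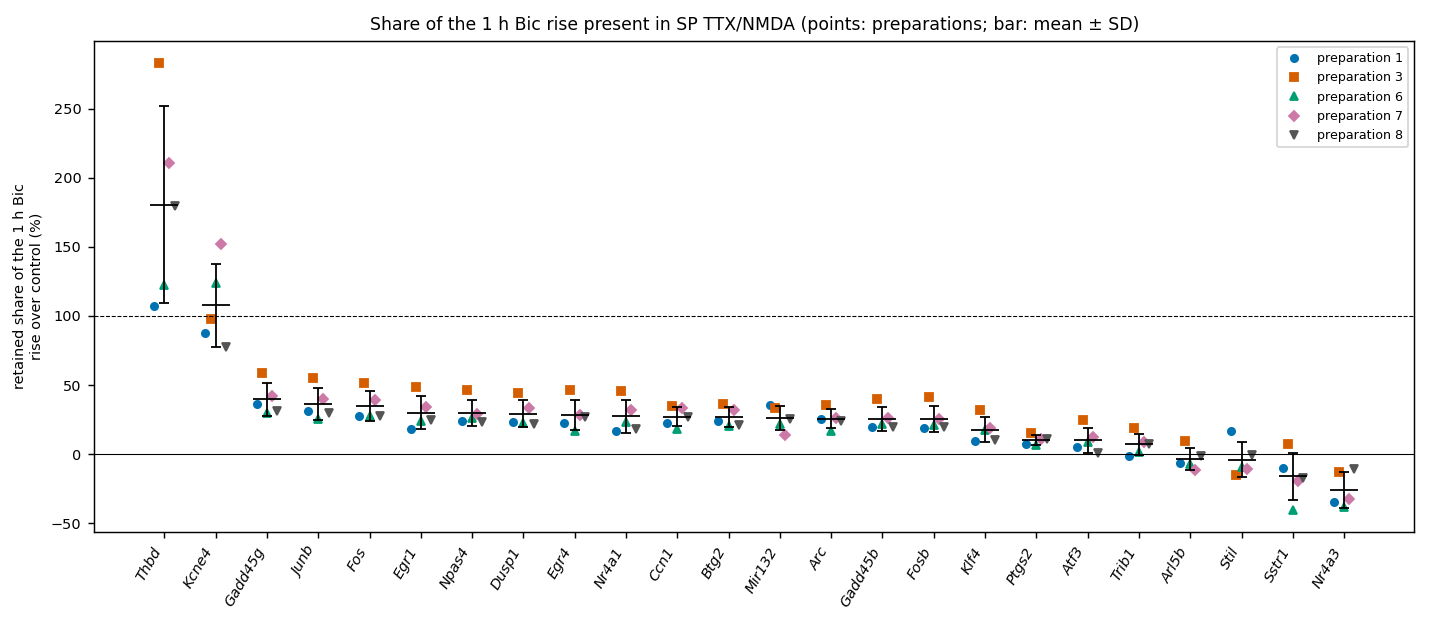
Retained share (y axis, percent of the 1 h Bic rise over the control that was present in SP TTX/NMDA) for 24 genes (x axis), with 1 point per preparation and the mean ± SD over the 5 preparations. Fos averages 34.7% and Fosb 25.3%, Thbd and Kcne4 lie above 100% on average, and Nr4a3 lies below 0 in every preparation.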

How the data were processed

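RNA-seq was available for 45 libraries of mouse hippocampal neurons, and the 25 of the short conditions were used. According to the submitters' processing notes and the methods of the study, reads were demultiplexed with bcl2fastq 2.20.0.422, aligned to GRCm38 with STAR 2.5.4b and assigned to genes by strand with featureCounts 1.6.5, uniquely mapped reads only. The authors deposited unnormalized counts for 54532 genes. Gene positions are those of GENCODE M21.

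Counts were compared with edgeR 4.0.16 (R 4.3.3) by TMM normalization, the edgeR expression filter and the quasi-likelihood F test, with the preparation as a block, between pairs of groups with 5 libraries each. Adjusted p-values are Benjamini-Hochberg values over all genes tested, called under 0.05, and ± after a log2 fold change is its standard error. The preparation number in the labels gives the pairing. Deviations from the group means of same-numbered control and SP TTX/NMDA libraries correlated at 0.22 to 0.50. No 2 libraries were identical. The study describes the 5 preparations as separate, without the number of animals behind each. With the block, p-values measure how far the within-preparation differences vary from preparation to preparation. Depth is the total count on genes, and counting error is largest for genes with few counts.

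Named genes were the 20 highest and 12 lowest changes against the control (called, same direction in 5 of 5 preparations, at least 50 normalized counts in the higher group), members of 22 gene lists, 13 of the genes that the study names, and 8 genes each way past all 4 tests by size against SP TTX. The members and lists were chosen with earlier results of these data known. The alternatives were no block, all genes with at least 1 read, a mean CPM of at least 1, RLE size factors, a robust prior, DESeq2 1.42.0, leaving out each preparation, and a promoter window of 150 bases. In simulated counts for SP TTX/NMDA against control (15234 genes), 46% of genes changed 1.25-fold, 80% of those changed 1.5-fold and 98% of those changed 4-fold were recovered, and 4.32% of calls were false. Each gene was drawn independently, with no deviation shared across genes by a library. The false share therefore need not hold for the real libraries.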

Additional observations from a re-analysis of the deposited data

How the results depend on the processing

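No call against the control turned direction in any alternative. Without the preparation block, 126 genes were higher and 131 lower than in the control (with all genes of at least 1 read, 220 and 178). Without the block the counts were 201 and 902 against Bic 0.5 h (194 and 798 with all genes of at least 1 read), 320 and 1162 against Bic 1 h (280 and 1071), 345 and 1063 against SP TTX (308 and 1071), and 13 and 102 past all 4 tests. DESeq2 with the block called 1138, 1062 and 599 higher genes against Bic 0.5 h, Bic 1 h and SP TTX. Leaving out 1 preparation gave 142 to 1799 higher and 68 to 2353 lower genes against the control, 1278 to 2240 higher against Bic 0.5 h, 853 to 2503 higher against Bic 1 h, 283 to 1743 higher and 827 to 2136 lower against SP TTX, and 27 to 143 higher and 66 to 865 lower past all 4 tests. The causes were not tested. Of 143 named genes, 51 kept their result against the control without the block, 126 by DESeq2 and 53 to 143 without 1 preparation. These include Inhba, which was not called in the main fit and stayed so. With 150 bases, TGACG or CGTCA was in 10 of 15 of the highest genes (66.7%), 1 of 9 of the lowest and 23.4% of all, TGACGTCA in 2 of the 15, and TGAGTCA or TGACTCA in 2.49% of all. Genes with few counts, such as Mir132, Kcne4 and Gm19938, are limited by depth, and 5 preparations limit all tests.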

Other observations

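Some genes outside the naming rule were chosen after their values were seen. Gm47075, an unclassified transcript at chr13:93312041-93314055 in an intron of Homer1 on the same strand, had 0, 1.19, 0, 0.523 and 0 normalized counts in the control libraries of preparations 1, 3, 6, 7 and 8 and 17.2, 33.9, 24.7, 24.5 and 29.7 in SP TTX/NMDA. The SP TTX libraries had 15.8, 8.55, 1.07, 5.78 and 6.3, and SP TTX/NMDA was 1.97 ± 0.413 higher on the log2 scale (adjusted p = 0.0101, edgeR), whereas Homer1 itself was lower than in SP TTX (−0.65). Reads of unspliced Homer1 RNA over this interval cannot be told apart from it.

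Chrm5, a muscarinic acetylcholine receptor, had 67.5, 33.3, 97.2, 73.2 and 81.3 normalized counts in the control and 38.6, 48.9, 50.5, 22.4 and 44.5 in SP TTX/NMDA. It was lower than in the control (−0.83 ± 0.235 on the log2 scale, adjusted p = 0.0451, edgeR), and −1.10 ± 0.164 without preparation 3 (adjusted p = 0.000211, edgeR), a setting chosen after seeing the data. The control of preparation 3 was again the lowest of its group, below the SP TTX/NMDA library of the same preparation.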
